A study of Mus musculus with 27 samples.

Results

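The m-ICc12 comparison asked how an established mouse epithelial cell line answers a low dose of tumour necrosis factor (TNF), and it stood in the study beside the same treatment of mouse small intestinal organoids. m-ICc12 is an immortalised line that was used as a stand-in for the intestinal crypt epithelium. Poly-A RNA of 3 numbered m-ICc12 cultures was sequenced, each with 1 library labelled untreated and 1 labelled treated with TNF. All libraries labelled with the cell type m-ICc12 were taken, 6 of the 27 libraries of the series. The treatment was murine TNF at 5 ng/mL for 8 h, and the untreated cultures received a change of the same medium. Both arms grew in a medium with dexamethasone, insulin, selenite, transferrin, triiodothyronine, epidermal growth factor and a low share of fetal calf serum, so a synthetic glucocorticoid was present throughout. The other 21 libraries were 18 of organoids (9 cultures from C57BL/6 mice of 2 specific pathogen-free facilities and 1 germ-free facility, each labelled untreated and TNF-treated) and 3 of untreated fibroblasts. All m-ICc12 cultures belong to 1 line, and nothing in the labels says that the 3 numbers are cultures grown apart, so the p-values measure the spread between these libraries, which may be technical.

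TNF binds 2 receptors, and in epithelial cells the widely expressed type 1 receptor recruits an adaptor and ubiquitin ligase complex that switches on the IκB kinases. These mark the IκB inhibitors for destruction, and the freed NF-κB dimers enter the nucleus and start the transcription of chemokines, adhesion molecules, acute-phase proteins and survival factors. Among the first targets are the inhibitors themselves, IκBα (Nfkbia), IκBε (Nfkbie) and the ubiquitin-editing enzyme A20 (Tnfaip3), which close the loop. A slower branch of the pathway works through the p100 precursor (Nfkb2) and RelB (Relb). Glucocorticoids oppose many NF-κB targets through their own receptor.

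The treatment labels and the names of the deposited tables disagreed. In each of the 3 cultures the library labelled untreated is held in the table whose name carries the study's code for TNF, and the reverse. Groups were taken from the labels, and every difference is given as labelled untreated minus labelled TNF-treated, on the log2 scale. The NF-κB targets went against the labels. Nfkbia had 115, 70.1 and 80.7 CPM (read counts scaled to a common library total, adjusted between libraries by the trimmed mean of M-values) in cultures 1, 2 and 3 labelled untreated, and 15.2, 21.9 and 22.9 CPM in the same cultures labelled TNF-treated. The same held in the organoids, where Nfkbia ran from 148 to 226 CPM in the 9 libraries labelled untreated and from 23.5 to 36.3 CPM in the 9 labelled TNF-treated. If the table names hold the true treatment, every sign below is reversed and no size, error or p changes.

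The 6 libraries were unequal in depth and in 2 other respects. Counts on genes came to 32567372, 43843615 and 39238907 in the libraries labelled untreated and to 6071103, 36135139 and 20305584 in those labelled TNF-treated, so 3 counts were worth 0.494 CPM in the shallowest library and 0.0684 CPM in the deepest. Lars2, the mitochondrial leucyl-tRNA synthetase, took 13.5% of all counts in culture 1 and 4.44% in culture 3 labelled TNF-treated, against 0.115% to 0.158% in the other 4 m-ICc12 libraries, 0.11% to 0.552% in the organoids and 0.0739% to 0.688% in the fibroblasts. The 66 clustered histone genes summed to 452 and 353 CPM in those same 2 libraries, to 166 CPM in culture 2 labelled TNF-treated, and to between 106 and 109 CPM in the libraries labelled untreated. Library 1 labelled TNF-treated had the lowest correlations with the other 5 (r across genes from 0.901 to 0.928, against 0.947 to 0.963 among those 5). An exact two-sided permutation test of 3 libraries against 3 cannot go below p = 0.1, and it gave 0.1 for the Lars2 share, 0.1 for the histone sum, 0.2 for the counts on genes and 0.7 for the share of mitochondrial transcripts.

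**Figure D1:**
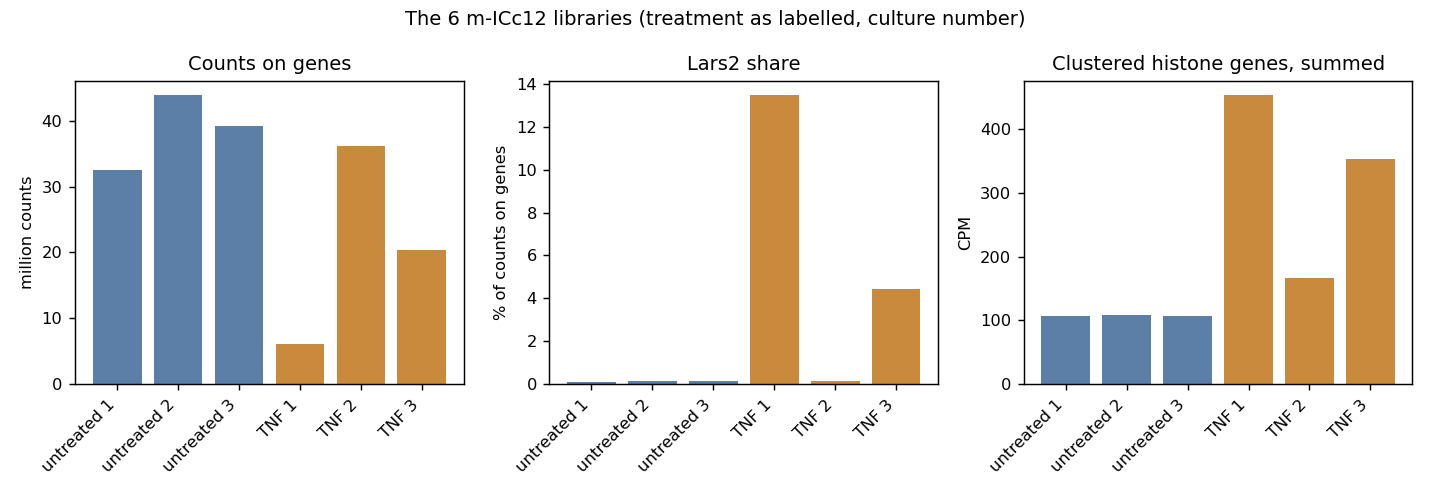
Counts on genes (axis in M), share of counts on Lars2 (%) and summed level of 66 clustered histone genes (CPM) in the 6 m-ICc12 libraries, 1 bar for each library, named by its treatment label and culture number. Libraries 1 and 3 labelled TNF-treated stand apart from the other 4 in the Lars2 share and the histone sum, and library 1 labelled TNF-treated has the fewest counts.

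The transcripts of the line were checked against cell type markers. Simple epithelial keratins were high, with Krt8 at 1157 to 1605 CPM and Krt18 at 398 to 657 CPM. Several markers of the intestinal epithelium were at or near 0. Cdx2, the transcription factor of intestinal identity, reached at most 0.749 CPM and Cdx1 at most 3.08 CPM. Muc2 of goblet cells reached at most 0.777 CPM, Lyz1 of Paneth cells at most 0.544 CPM and Lgr5 of stem cells at most 2.04 CPM. Villin (Vil1, 17.9 to 41.8 CPM), Hnf4a (78.7 to 197 CPM) and Cdh17 (19.3 to 34.8 CPM) were present, of which Vil1 and Hnf4a are also expressed in kidney tubules. Epcam stayed at 2.14 to 7.44 CPM and Cdh1, which encodes E-cadherin, at 0.969 to 7.08 CPM, while vimentin (Vim) stood at 1872 to 3110 CPM.

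Genes best known from kidney tubule epithelium were expressed in every library. Cdh16, the kidney-specific cadherin, stood at 605 to 878 CPM, Pax8 at 267 to 353 CPM, Lrp2, which encodes the endocytic receptor megalin, at 161 to 326 CPM and Pax2 at 38.7 to 119 CPM. Umod reached at most 1.85 CPM and Slc12a1 had 0 counts in all 6 libraries, so the list was not uniformly present. Of the leukocyte markers Adgre1, Cd3e, Lyz2 and Tyrobp had 0 counts and Ptprc at most 1.53 CPM, while Csf1r, the receptor for Csf1, stood at 66.8 to 144 CPM. Pecam1 and Cdh5 of endothelium had 0 counts. Cdx2, Cdx1, Muc2, Lyz1 and Lgr5 were thus absent or close to it in cells labelled and used as intestinal epithelium. Hnf4a, Vil1 and Cdh17 of the same list were present in every library, and the name of the line is kept as its label gives it.

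Across 11861 genes tested, 13 passed an adjusted p of 0.05 (0.11% of genes tested, edgeR's quasi-likelihood test with Benjamini-Hochberg adjustment). Of these, 11 were higher in the libraries labelled untreated (0.0927%): Ccl2, C3, Nfkbia, Cxcl1, Lcn2, Itga2, Relb, Csf1, Tnfaip3, Nfkb2 and Nfkbie. The 2 that were lower were Hist1h1d and Lars2 (0.0169%). DESeq2 called 46 genes, 25 higher and 21 lower. In all 13 genes the 3 libraries of one label did not overlap the 3 of the other. Non-overlap alone was common, with 618 genes higher (5.21%) and 529 lower (4.46%) in the libraries labelled untreated, and 556 genes had an unadjusted p under 0.05. At the thresholds of the study, an unadjusted p of at most 0.05 with a log2 difference of at least 0.5, 445 genes passed (3.75%), 240 higher (2.02%) and 205 lower (1.73%). With library totals in place of the trimmed mean scaling that split moved from 240 and 205 to 331 and 125. The median log2 difference of all genes was 0.01, and 50.8% were positive. A gene could enter the test through a single label. Ccl20, Traf1, Serpina3g, Icam1, Vcam1, Fas, Casp12, Tap2, Gbp3 and Xaf1 did so through the libraries labelled untreated. Such entry favoured a positive sign, which bears on the counts and medians of their lists.

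**Figure D2:**
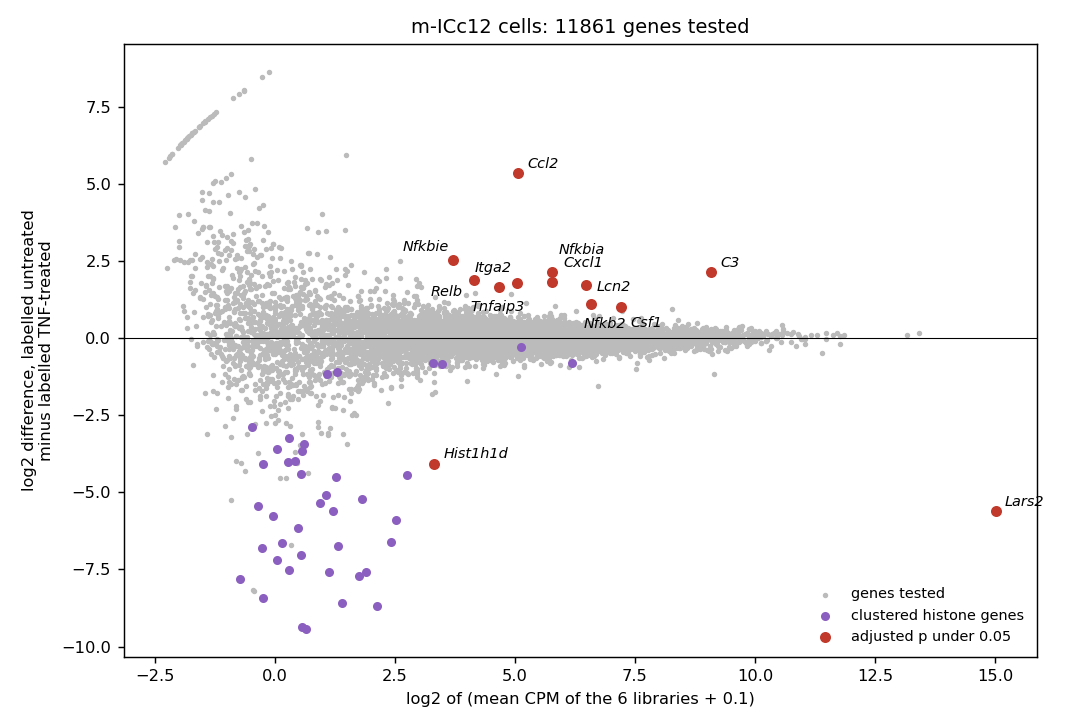
Log2 difference of each of 11861 genes (vertical axis, labelled untreated minus labelled TNF-treated) against log2 of its mean CPM plus 0.1 (horizontal axis), with the 13 genes past an adjusted p of 0.05 in red and clustered histone genes in purple. The 11 named genes above the zero line separate from genes of like level, the histone genes lie below the line, and the arc at the upper left holds genes at or near 0 counts in the libraries labelled TNF-treated, whose fitted differences depend on the prior count.

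Ccl2, C3, Cxcl1 and Lcn2 were set out as markers of the comparison with earlier results of these data known, and all 4 passed, which is therefore a description. Ccl2 encodes the chemokine that draws monocytes. It had 67.0, 61.8 and 65.7 CPM in cultures 1, 2 and 3 labelled untreated, and 3.27, 1.95 and 0.35 CPM labelled TNF-treated, where it rested on 18, 72 and 7 counts. The 3 libraries labelled untreated were nearly level, the other 3 spread widely at a low level, and the groups lay far apart. The log2 difference was 5.34 ± 0.46 (SE, n = 3 per label, edgeR adjusted p = 4.78e-05).

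C3, the central protein of the complement cascade, had 886, 1123 and 646 CPM labelled untreated and 204, 214 and 187 CPM labelled TNF-treated. The spread lay in the libraries labelled untreated, and the lowest of them was still above the highest of the others. Its log2 difference was 2.13 ± 0.19 (edgeR adjusted p = 4.78e-05). Cxcl1, a neutrophil attractant, had 95.0, 86.3 and 74.0 CPM against 28.5, 20.2 and 23.7 CPM, a log2 difference of 1.83 ± 0.20 (edgeR adjusted p = 0.000395). Lcn2, the siderophore-binding lipocalin that keeps iron from bacteria, had 118, 170 and 123 CPM against 39.2, 37.4 and 48.5 CPM, a log2 difference of 1.72 ± 0.20 (edgeR adjusted p = 0.000499). In none of these 3 genes did library 1 labelled TNF-treated, with its low total, set the difference, since cultures 2 and 3 held it too.

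**Figure D3:**
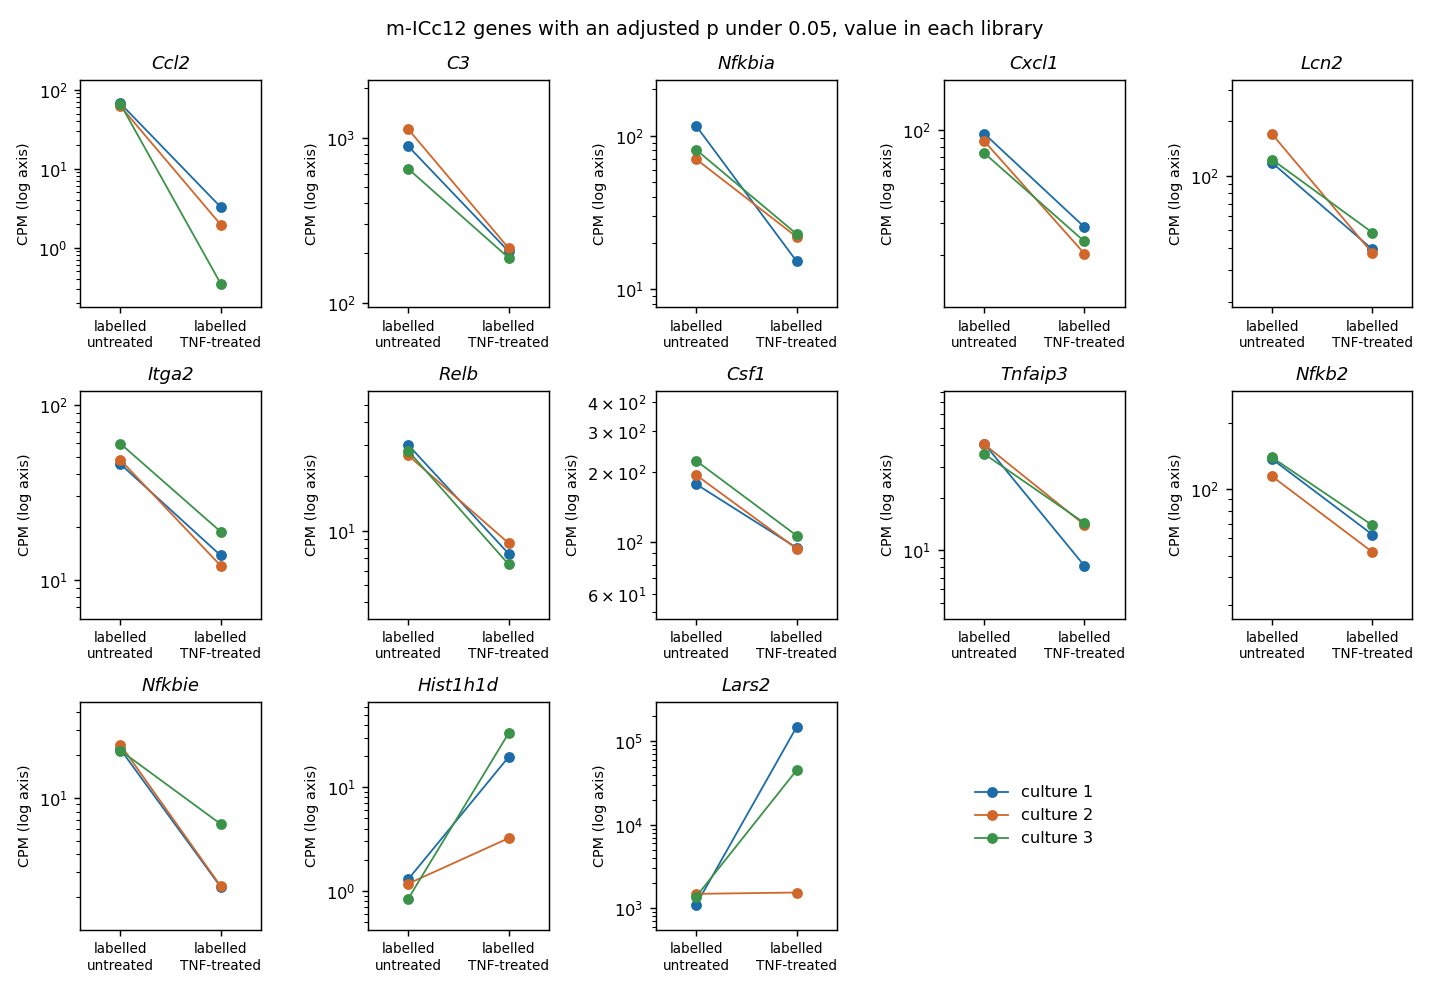
CPM (log axis) in each of the 6 m-ICc12 libraries of the 13 genes that passed the adjusted test, in panels ordered by p. A line joins the 2 libraries of a culture number, although the numbers did not pair the libraries. The first 11 genes are higher in all 3 libraries labelled untreated, while Hist1h1d and Lars2 are high in libraries 1 and 3 labelled TNF-treated and much less so in library 2.

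Among the NF-κB subunits and their inhibitors, 4 of 11 members passed the adjusted test, all higher in the libraries labelled untreated, against 0.0927% of all genes tested. The list's median log2 difference was 0.49 against 0.01 for all genes. Nfkbia, which holds NF-κB in the cytoplasm, differed by 2.13 ± 0.23 (edgeR adjusted p = 0.000395), with the values given above. Nfkbie, a second inhibitor of this kind, had 21.97, 23.7 and 21.5 CPM labelled untreated and 2.36, 2.39 and 6.54 CPM labelled TNF-treated. Cultures 1 and 2 labelled TNF-treated were alike and culture 3 stood higher, yet far under every library labelled untreated. The difference was 2.54 ± 0.41 (edgeR adjusted p = 0.0161).

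The subunit genes of the slower branch, Relb and Nfkb2, passed as well. Whether that branch was active was not tested. Relb had 29.8, 26.1 and 27.7 CPM against 7.44, 8.52 and 6.49 CPM, a log2 difference of 1.89 ± 0.28 (edgeR adjusted p = 0.00944). Nfkb2, which encodes p100 and p52, had 137, 114 and 139 CPM against 62.4, 52.1 and 68.8 CPM, a log2 difference of 1.09 ± 0.18 (edgeR adjusted p = 0.0161). The other subunit genes moved less. Nfkb1, which encodes p105 and p50, had 146, 129 and 170 CPM against 97.1, 90.4 and 128 CPM, a log2 difference of 0.49 with an unadjusted p of 0.0153 (edgeR adjusted p = 0.988). Rela differed by 0.27, Rel by 0.07 and Bcl3 by 0.33, and Nfkbiz by -0.11, none past either threshold.

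Of 16 negative regulators tested 1 passed the adjusted test, against 0.0927% of all genes tested. Tnfaip3 had 40.7, 40.4 and 35.6 CPM labelled untreated and 8.16, 13.996 and 14.3 CPM labelled TNF-treated, a log2 difference of 1.65 ± 0.27 (edgeR adjusted p = 0.0161). Culture 1 labelled TNF-treated was the lowest, and cultures 2 and 3 were close to each other. Tnip1, an A20-binding partner, and Zc3h12a, the ribonuclease Regnase-1, passed the study's thresholds at 0.72 and 1.12, and Dusp1, a phosphatase of the MAP kinases and a glucocorticoid target, passed in the other direction at -0.81. Of the 16 members tested, 12 passed neither threshold, among them Cyld, Otulin, Optn and Zfp36. The median of the list was 0.15, and 0.09 without library 1 labelled TNF-treated.

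Between the receptor and the kinase, 5 of 21 genes passed the study's thresholds, all higher in the libraries labelled untreated, against 2.02% of all genes tested. None passed the adjusted test. The type 1 receptor gene Tnfrsf1a was level, at 117, 123 and 127 CPM against 136, 122 and 123 CPM. Tnfrsf1b, the inducible type 2 receptor, had 16.9, 11.3 and 15.4 CPM against 0.726, 7.68 and 8.09 CPM, so its difference of 1.33 leaned on library 1 labelled TNF-treated, where it had 4 counts. Traf1, an adaptor that is itself an NF-κB target, had 88, 40 and 35 counts labelled untreated and 0 in each library labelled TNF-treated. Against a floor of 3 counts over that group it was at least 28.5-fold higher in the libraries labelled untreated. Traf2 had 69.0, 67.8 and 65.8 CPM against 29.8, 43.9 and 42.1 CPM, a difference of 0.80, and Traf3 and Birc3, the ligase cIAP2, differed by 0.55 and 0.97. The kinases of the IκB complex, Chuk, Ikbkb and Ikbkg, lay between -0.21 and 0.28 and passed neither threshold. Outside the list, Ikbke, an inducible relative of those kinases, had 52.2, 46.8 and 54.8 CPM against 29.6, 23.0 and 18.6 CPM, a difference of 1.13 ± 0.22 (edgeR adjusted p = 0.0945).

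The chemokines were mostly silent. Of 27 in the tables, 18 were too low to be tested, and Ccl3, Ccl4, Ccl8, Ccl11, Ccl12, Ccl22, Cxcl9, Cxcl13, Cxcl14 and Cxcl15 were listed at 0 in all 6 libraries. Of the 9 tested, 2 passed the adjusted test and 4 the study's thresholds, all higher labelled untreated (against 0.0927% and 2.02% of all genes tested). The median difference was 1.64, and 0.99 without library 1 labelled TNF-treated, where 4 of 11 passed the study's thresholds. Cxcl5, a second neutrophil attractant, had 10.5, 12.6 and 14.2 CPM against 0.726, 6.75 and 3.79 CPM, a difference of 1.64 ± 0.55. Ccl20, which draws cells with the receptor CCR6, had 3, 46 and 75 counts labelled untreated and none labelled TNF-treated, at least 21.7-fold higher. Cxcl10 had 2.84, 1.58 and 2.51 CPM against 0, 1.00 and 0.15 CPM and passed neither threshold, and Cx3cl1 was level at 18.7 to 26.5 CPM.

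Among 22 cytokines and growth factors, 9 were tested and Csf1, the macrophage growth factor, passed the adjusted test (against 0.0927% of all genes tested). It had 178, 194 and 224 CPM labelled untreated and 94.7, 93.8 and 107 CPM labelled TNF-treated, a log2 difference of 1.01 ± 0.16 (edgeR adjusted p = 0.0161). Tnf itself, Il1b and Il6 were listed at 0 in all 6 libraries. Il34, the other ligand of the Csf1 receptor, had 61.9, 47.2 and 65.3 CPM against 58.4, 35.02 and 41.8 CPM and overlapped between the labels.

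C3 was the single complement gene past either threshold, out of 9 tested of 19 in the tables (against 2.02% of all genes higher at the study's thresholds). Factor B (Cfb) had 15.9, 26.8 and 10.4 CPM against 15.1, 14.5 and 8.94 CPM and overlapped, and the regulator Cd59a differed by -0.06. C1qa, C1qb, C1qc, Serping1 and Hc were listed at 0 throughout.

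Acute-phase and mucosal defence genes showed the same direction in 9 of 10 members tested, against 50.8% of all genes, with a median difference of 1.68. Of these 10, 2 had 0 counts in every library of a single label and so entered the test through the other label alone. At the study's thresholds 4 passed, Lcn2 among them, against 2.02% of all genes. Without library 1 labelled TNF-treated the median was 1.21 and 5 of 11 passed. In the fit of all 27 libraries 1 of 18 passed. Ceruloplasmin (Cp), a copper-carrying ferroxidase, had 377, 513 and 325 CPM labelled untreated and 192, 219 and 221 CPM labelled TNF-treated, a log2 difference of 0.94 ± 0.18 that missed the adjusted test (edgeR adjusted p = 0.0653). Slpi, an inhibitor of neutrophil elastase, had 15.1, 6.30 and 9.49 CPM against 0.181, 2.71 and 2.05 CPM, a difference of 2.51 ± 0.66. Serpina3g had 70, 113 and 13 counts labelled untreated and 0 in all 3 labelled TNF-treated, at least 34.2-fold higher. It therefore entered the test through the libraries labelled untreated alone. The intestinal defence genes Reg3b and Reg3g stayed under 1 CPM in every library, and S100a8, S100a9 and Duoxa2 were listed at 0.

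Adhesion genes were low in these cells. Icam1, the ligand of leukocyte integrins, had 83, 312 and 49 counts labelled untreated (2.45, 6.92 and 1.22 CPM) and 1, 1 and 9 counts labelled TNF-treated, and Vcam1 had 271, 188 and 89 counts against 6, 1 and 9. Both passed the study's thresholds without overlap between the labels and missed the adjusted test (edgeR adjusted p = 0.61 and 0.702). They were the 2 of 11 members that passed, against 2.02% of all genes tested, and the median of the list was 0.08. Fibronectin (Fn1, 722 to 939 CPM) and syndecan 4 (Sdc4, 239 to 292 CPM) were level.

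Itga2, the α2 subunit of a collagen-binding integrin, belonged to none of the lists and was among the 11 genes that passed. It had 45.7, 48.3 and 59.8 CPM labelled untreated and 13.8, 12.04 and 18.8 CPM labelled TNF-treated, a log2 difference of 1.78 ± 0.24 (edgeR adjusted p = 0.00402). Culture 3 was the highest of both labels.

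Survival and cell death genes gave 4 of 19 past the study's thresholds (against 2.02% of all genes tested) and none past the adjusted test, with a median of 0.20. Without library 1 labelled TNF-treated 3 of 19 passed and the median was 0.13. Tnfaip2 had 40.1, 36.6 and 57.3 CPM against 5.26, 22.5 and 20.0 CPM, a difference of 1.44 ± 0.37. Casp4, the mouse caspase-11 that senses lipopolysaccharide, had 5.12, 11.6 and 11.5 CPM against 4.35, 1.79 and 1.55 CPM. Library 1 was the lowest of those labelled untreated and the highest of those labelled TNF-treated. Fas, a death receptor, had 123, 155 and 111 counts against 0, 2 and 15, and Casp12 114, 170 and 84 against 0, 1 and 25. The long-standing NF-κB targets Sod2, Ier3, Bcl2l1 and Cflar lay between 0.01 and 0.20, each overlapping between the labels.

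All 13 MHC class I genes tested had a positive difference, against 50.8% of all genes, with a median of 0.33. Of these 3 passed the study's thresholds (against 2.02% of all genes tested) and none the adjusted test. Tapbp, the tapasin that loads peptides, had 93.6, 70.8 and 64.2 CPM against 36.8, 34.96 and 40.2 CPM, a difference of 1.03 ± 0.20 (edgeR adjusted p = 0.069). H2-D1 had 19.8, 19.8 and 21.5 CPM against 15.96, 10.6 and 10.2 CPM, a difference of 0.75, and library 1 labelled TNF-treated stood closest to the libraries labelled untreated. Tap2 had 55, 36 and 23 counts against 0, 4 and 4. Without library 1 labelled TNF-treated, 11 of the 13 stayed positive.

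Of 20 interferon response genes tested Irf1, Gbp3 and Xaf1 passed the study's thresholds (against 2.02% of all genes tested), and none passed the adjusted test. Without library 1 labelled TNF-treated no member passed in this direction and 1 passed in the other, and the median went from 0.33 to 0.09. The differences of Gbp3 in cultures 2 and 3 alone were 3.25 and 1.72, and those of Xaf1 were 2.35 and 1.89, on few counts. Irf1, a transcription factor that NF-κB also induces, had 43.8, 63.7 and 46.3 CPM against 27.4, 36.7 and 36.5 CPM. Gbp3 and Xaf1 had 0 counts in that library, whose 3 counts are worth 0.494 CPM, and at most 0.163 and 0.325 CPM in the other 2 labelled TNF-treated. Irf9 (15.1 to 33.7 CPM) overlapped between the labels.

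**Figure D4:**
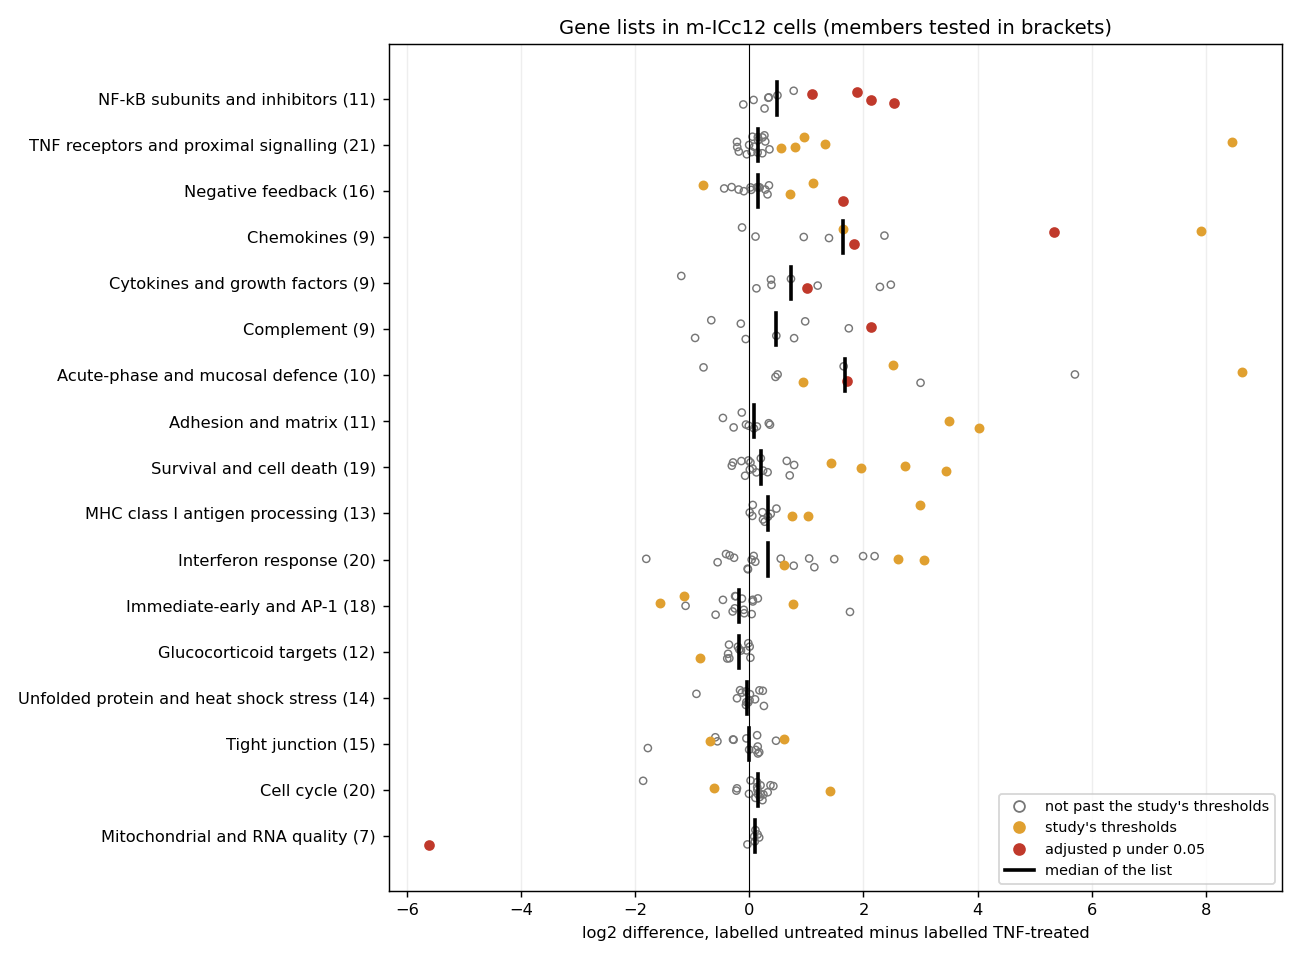
Log2 difference (labelled untreated minus labelled TNF-treated) of the members tested in each of 17 gene lists, 1 point for each gene, with the median of each list as a bar and the number of members tested in brackets. The points farthest to the right in the chemokine, acute-phase and receptor lists are Ccl20, Serpina3g and Traf1, which had 0 counts in all libraries labelled TNF-treated, so that their position depends on the prior count. Red points (adjusted p under 0.05) lie to the right of 0 except Lars2 in the last list, and orange points passed the study's thresholds alone.

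Of 18 immediate-early genes, 2 were lower at the study's thresholds (against 1.73% of all genes), 1 was higher (against 2.02%) and none passed the adjusted test. The median was -0.18, and -0.11 without library 1 labelled TNF-treated or -0.10 with library totals. Fos had 462, 418 and 181 CPM labelled untreated and 834, 780 and 746 CPM labelled TNF-treated, a log2 difference of -1.15 ± 0.25 (edgeR adjusted p = 0.17). Fosb had 95.4, 55.0 and 10.9 CPM against 214, 158 and 106 CPM. In both genes culture 3 labelled untreated was the lowest of the 6 libraries and gave the widest gap. Jun, Egr1, Atf3 and Myc lay between -0.46 and 0.15 and overlapped.

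Of 12 glucocorticoid targets 1 passed the study's thresholds, lower in the libraries labelled untreated (against 1.73% of all genes), and none passed the adjusted test. The median was -0.19 with 2 of 12 members positive, and -0.10 with 4 of 12 positive once library totals replaced the trimmed mean scaling. Sgk1, a kinase of sodium transport that glucocorticoids induce, had 36.6, 46.5 and 47.8 CPM against 75.1, 85.1 and 78.8 CPM, a log2 difference of -0.87 ± 0.18 (edgeR adjusted p = 0.141), the only member past the study's thresholds. Fkbp5, a chaperone partner of the glucocorticoid receptor, had 415, 484 and 442 CPM against 630, 564 and 543 CPM, and the metallothionein Mt2 had 390, 323 and 424 CPM against 511, 440 and 536 CPM. Both were without overlap between the labels and under the size threshold. The receptor gene Nr3c1 differed by -0.02. Sgk1 had its highest value in library 2 labelled TNF-treated, which lacked the high Lars2 share of libraries 1 and 3. A link of Sgk1 to those libraries was not tested.

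Stc2, a secreted glycoprotein of the stanniocalcin family, and Smim24, a small membrane protein, were also among the genes lower in the libraries labelled untreated. Stc2 had 29.0, 35.6 and 34.4 CPM against 60.6, 66.9 and 51.2 CPM, and Smim24 had 3.96, 4.88 and 3.78 CPM against 23.4, 11.9 and 9.34 CPM. Neither passed the adjusted test (edgeR adjusted p = 0.27 and 0.332). Col4a3, a chain of basement membrane collagen, had 107, 178 and 122 CPM against 290, 205 and 216 CPM, and Pde4d, a phosphodiesterase of cyclic AMP, had 5.26, 5.81 and 2.61 CPM against 21.95, 10.1 and 14.3 CPM. Both were without overlap between the labels, least apart in culture 2, and missed the adjusted test (edgeR adjusted p = 0.391 and 0.396). Among the genes higher in those libraries, the endocytic adaptor Epn2 differed by 0.89, the lysosomal membrane protein Gpr137b by 0.73 and the cytokine signalling inhibitor Socs2 by 1.69, with adjusted p of 0.114, 0.332 and 0.362 in edgeR's test.

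Stress, barrier and cell cycle lists were close to the background, where 2.02% of all genes were higher and 1.73% lower at the study's thresholds. None of 14 unfolded protein and heat shock genes passed either threshold, and Hspa5, the main chaperone of the endoplasmic reticulum, stood at 849 to 994 CPM in all 6 libraries. Of 15 tight junction genes, Cldn4 passed upward at 0.60 and Mylk, the myosin light chain kinase that loosens junctions, passed downward at -0.69, with 81.4, 105 and 73.5 CPM against 200, 106 and 115 CPM. Its high value was that of library 1 labelled TNF-treated, without which Mylk and every other member of the list failed to pass downward. Of 20 cell cycle genes the cyclins E alone passed the study's thresholds, in opposite directions. Ccne1 had 25.0, 18.7 and 24.6 CPM against 7.98, 4.86 and 12.9 CPM, a difference of 1.41. Ccne2 had 19.4, 19.9 and 16.3 CPM against 32.8, 28.4 and 24.4 CPM, a difference of -0.62. Neither passed the adjusted test (edgeR adjusted p = 0.396 and 0.996). Without library 1 labelled TNF-treated, or with library totals, no cell cycle gene passed downward. Mki67 and Top2a, markers of proliferating cells, differed by 0.18 and 0.20 and overlapped.

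Histone genes were the bulk of the strongest differences in the other direction, and they moved with Lars2. This group was picked out after its values were seen. Of 66 clustered histone genes 42 were tested, and none of the 42 had a positive difference. Their median was -5.38, or -5.15 with the 4 genes at 0 in 1 label set to their bound. Of the 42, 35 passed the study's thresholds, against 1.73% of all genes lower. In libraries 1 and 3 labelled TNF-treated 43 and 44 histone genes reached 10 counts, against 12 or 13 in every other m-ICc12 library. Most of the 42 thus entered the test through libraries where they were high, which bears on the shared sign and the median. Without libraries 1 and 3 labelled TNF-treated 14 were tested, with a median of -1.19 and 1 positive. Hist1h1d, a linker histone, had 1.30, 1.18 and 0.845 CPM labelled untreated and 19.6, 3.23 and 33.2 CPM labelled TNF-treated, a log2 difference of -4.07 ± 0.66 (edgeR adjusted p = 0.0161). Hist1h4d had 6, 6 and 0 counts against 112, 14 and 212, and Hist1h4h 1, 0 and 0 counts against 60, 2 and 84. Hist1h1c, a linker histone gene expressed in every library, had 62.2, 46.9 and 50.5 CPM against 95.2, 96.3 and 89.0 CPM, so it was higher in library 2 labelled TNF-treated too. Hist1h3a was likewise highest in libraries 1 and 3 labelled TNF-treated. Histone genes of a family are near-identical copies, so single members are uncertain where the counting could split reads between them.

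Lars2 had 1108, 1490 and 1384 CPM labelled untreated and 148190, 1546 and 44994 CPM labelled TNF-treated. Its difference of -5.61 ± 0.96 (edgeR adjusted p = 0.0235) came from 2 libraries, and library 2 labelled TNF-treated lay close to those labelled untreated. Without libraries 1 and 3 labelled TNF-treated the difference was -0.21 for Lars2 and -1.53 for Hist1h1d, 4 histone genes of 14 tested passed the study's thresholds, and neither of the 2 genes passed the adjusted test. Ccl2, C3, Cxcl1, Lcn2, Nfkbia, Nfkbie and Itga2 still passed it, on the assumption that the lone remaining library varies like the others. Mitochondrial transcripts did not follow Lars2, with mt-Co1, mt-Nd1 and mt-Cytb differing by 0.17, 0.09 and 0.08. The part of the 2 libraries in the genes lower in the libraries labelled untreated was not tested beyond leaving them out.

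Because the genes higher in the libraries labelled untreated were largely known NF-κB targets, the bases before their start sites were read for a loose form of the κB element on both strands, GGGA followed by any 4 bases and CC (its reverse complement reads GG, any 4 bases and TCCC, and a symmetric element matches in both readings). Within 250 bases upstream, 6 of the 9 called genes with a promoter in the RefSeq table held a match (C3, Cxcl1, Nfkbia, Csf1, Tnfaip3 and Nfkb2), and Lcn2, Itga2 and Nfkbie did not. The share was 66.7%, against 26.4% of genes tested, 29.2% of those higher and 28.8% of those lower at the study's thresholds. It was 19.7% of all genes in the table, where a gene counted if any of its starts matched, and 17.6% of single promoters. The 100 bases before the start are shown for the genes with a match there, and Lcn2 as the contrast without one, in GRCm38.p6 from RefSeq, 5′ to 3′ on the strand of the gene, with matches in capitals.
Cxcl1 (chr5:90891145-90891244, plus strand): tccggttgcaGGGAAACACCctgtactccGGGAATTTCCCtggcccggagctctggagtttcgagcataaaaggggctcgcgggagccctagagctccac
Nfkbia (chr12:55492648-55492747, minus strand): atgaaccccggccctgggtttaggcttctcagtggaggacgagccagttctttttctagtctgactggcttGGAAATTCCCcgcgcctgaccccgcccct
Nfkb2, first of 3 starts (chr19:46304637-46304736, plus strand): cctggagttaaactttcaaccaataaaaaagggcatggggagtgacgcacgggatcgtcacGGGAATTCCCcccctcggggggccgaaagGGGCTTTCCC
Tnfaip3, second of 2 starts (chr10:19011964-19012063, minus strand): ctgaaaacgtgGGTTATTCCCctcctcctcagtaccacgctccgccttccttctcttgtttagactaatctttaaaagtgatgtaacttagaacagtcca
C3 (chr17:57228137-57228236, minus strand): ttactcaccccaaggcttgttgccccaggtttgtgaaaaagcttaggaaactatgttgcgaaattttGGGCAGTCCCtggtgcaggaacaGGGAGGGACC
Lcn2 (chr2:32387740-32387839, minus strand): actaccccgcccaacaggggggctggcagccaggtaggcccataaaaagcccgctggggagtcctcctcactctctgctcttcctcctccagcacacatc

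Cxcl1 held an 11-base run in which both readings match, and Nfkb2 a palindromic match. Such matches are a description of letters, and no binding was measured. A gene without a match, such as Lcn2 with its difference of 1.72, holds no such letters in this window only.

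The question that linked the line to the organoids was whether the answer was the same in both, and it was tested as the difference between the 2 differences in a single edgeR fit of 24 libraries. Of 13183 genes tested 21 passed an adjusted p of 0.05 (0.159%), and 748 passed the study's thresholds (5.67%). The organoid numbers paired their libraries, and with the culture number as a block 103 genes passed, 28 larger and 75 smaller or more negative in m-ICc12 cells, with 19 of the 21 among them. In that fit Lars2 lost its call (edgeR adjusted p = 0.0791), and Ccne1 gained one, at 1.32 (0.0491). Nfkbia, Nfkbie, Tnfaip3, Relb and Nfkb2 did not differ past the adjusted threshold. The m-ICc12 minus organoid difference of Nfkb2 was -0.68 ± 0.21 (edgeR adjusted p = 0.379), and Nfkb2 and Nfkbia passed the study's thresholds. Nfkbia differed between the labels by 2.13 in m-ICc12 cells and 2.66 in organoids, Tnfaip3 by 1.66 and 1.54, Relb by 1.90 and 1.49, and Nfkb2 by 1.10 and 1.79. For Tnfaip3 the difference of the 2 was 0.13 ± 0.26, with either sign among the alternatives (-0.12 to 0.31), and for Nfkbia -0.52 ± 0.22, with edgeR adjusted p of 1 and 0.65, which does not show that the responses were equal.

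C3 moved in both and by unequal amounts. In organoids it ran from 20.1 to 247 CPM (median 45.5) in the 9 libraries labelled untreated and from 0.127 to 1.27 CPM (median 0.337) in the 9 labelled TNF-treated, a log2 difference of 7.06 against 2.15 in m-ICc12 cells. The lowest m-ICc12 library had 187 CPM, above the median of the organoids labelled untreated. The difference between the 2 was -4.91 ± 0.78 (edgeR adjusted p = 0.00309).

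Itga2 moved in m-ICc12 cells and had the opposite sign in organoids. There it ran from 8.25 to 26.9 CPM (median 21.8) in the libraries labelled untreated and from 22.8 to 36.5 CPM (median 27.1) in those labelled TNF-treated, a log2 difference of -0.58 against 1.79. The organoid difference alone missed the adjusted test (edgeR adjusted p = 0.12), and the organoid libraries overlapped between the labels. The difference of the 2 was 2.37 ± 0.35 (edgeR adjusted p = 0.00309). Socs2 differed by 1.69 in m-ICc12 cells, with 11.7, 11.9 and 11.4 CPM against 3.27, 3.96 and 3.55 CPM, and by 0.29 in organoids, a difference of 1.39 ± 0.22 (edgeR adjusted p = 0.00309).

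Cyba, the p22phox subunit of NADPH oxidases, went the other way. In organoids it had 89.8 to 153 CPM (median 119) labelled untreated and 12.2 to 27.8 CPM (median 19.8) labelled TNF-treated, a log2 difference of 2.59. In m-ICc12 cells it had 151, 110 and 105 CPM against 52.6, 111 and 93.8 CPM, so library 1 labelled TNF-treated alone was low and the groups overlapped. The difference of the 2 was -2.09 ± 0.33 (edgeR adjusted p = 0.00309), and it lost the call without culture 2 (-1.78, adjusted p = 0.0596). Pdlim1, a cytoskeletal adaptor, stood at 101 to 150 CPM in every organoid library and near 0 in m-ICc12 cells, with 8, 5 and 2 counts labelled untreated against 38, 43 and 12 labelled TNF-treated, and its difference of -3.91 ± 0.63 (edgeR adjusted p = 0.00335) rests on those counts.

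Ccl2, Cxcl1 and Lcn2, which led the list in m-ICc12 cells, were nearly silent in organoids. Ccl2 reached at most 0.357 CPM there, Cxcl1 at most 2.58 CPM and Lcn2 at most 3.97 CPM, so their organoid differences of 2.68, 2.75 and 2.08 rest on few counts. Within organoids Cxcl1 passed the adjusted test (edgeR adjusted p = 0.0178), and Ccl2 and Lcn2 did not (0.13 and 0.272). None of the 3 differed between line and organoids past the threshold. Ccl20 was the reverse in level, with 2.33 to 24.6 CPM in organoids labelled untreated. Icam1 differed by 4.05 in the line and 3.92 in organoids, a difference of 0.12 that ran from -1.51 to 2.87 over the alternatives. Birc3, Tnip1 and Tapbp differed by 0.95, 0.73 and 1.04 against 1.07, 0.95 and 1.10.

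**Figure D5:**
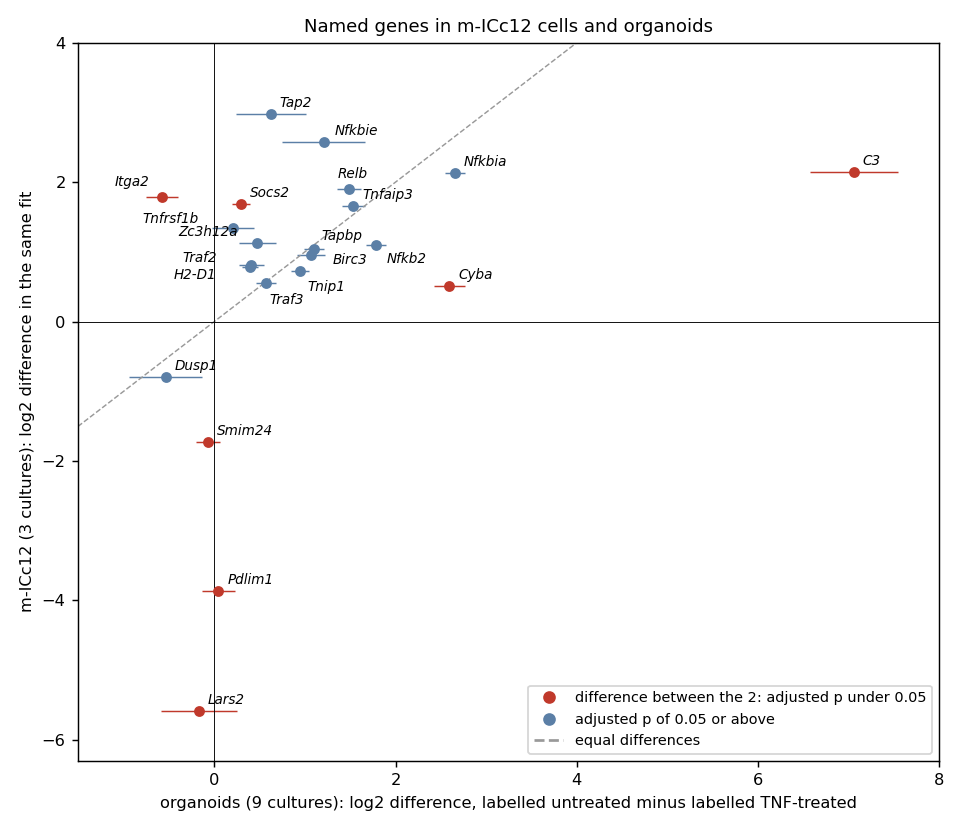
Log2 difference (labelled untreated minus labelled TNF-treated) in organoids (horizontal axis, 9 cultures, bars are 1 standard error) and in m-ICc12 cells (vertical axis, 3 cultures, no error drawn) for called genes and members of the NF-κB, receptor, feedback, chemokine and MHC class I lists past the study's thresholds. Genes near 0 in organoids are left out, as are those at 0 counts in 1 label of the m-ICc12 cells, such as Ccl20. Most NF-κB genes lie near the dashed line of equal differences, C3 and Cyba lie to its right, and Itga2, Socs2, Lars2, Pdlim1 and Smim24 lie near or left of the zero of the organoids.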

How the data were processed

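RNA-seq read counts per gene were deposited by the authors as 1 table per library and used unchanged. Per the labels and the study's methods, single-end reads were trimmed with Trimmomatic, aligned to GRCm38 with STAR and counted per gene on Ensembl annotation. The methods name GenomicRanges and the submitters' notes list featureCounts (STAR 2.5.4b), and strand use in counting is not given in the sources used here. The tables held 22524 genes. Genes were kept that reached 10 counts in 50% or more of one label's libraries, and TMM scaling and edgeR (version 4.0.16, R 4.3.3) quasi-likelihood tests were applied without a block, as in the study. Log2 differences carry standard errors derived from the F statistic. DESeq2 1.42.0, all genes, the culture as block, left-out libraries, Lars2 left out, library totals, 1 fit of 27 libraries and thinned counts were alternatives, and scripts were tested on simulated data. Organoid numbers paired their libraries (deviations from the means of facility and label correlated at 0.103 to 0.311 in 9 of 9 pairs, and were over 0.1 in each), so the blocked value stands beside that comparison. Exact permutation tests used scipy 1.17.1. Depth ran from 6071103 to 43843615 counts, and floors cover counting error only. The members and gene lists were chosen with earlier results of these data known. Named genes were the 4 markers, all genes past the adjusted test, the next 10 by p in each direction with the same nonzero direction in all 3 cultures, list members past a threshold or near 0, and the 5 leading genes of the organoid comparison. Others named for contrast were chosen after their values were seen. A gene at 0 in 1 group was set against 3 counts over that group. Promoters came from the RefSeq table of the same build. A few members of the lists are not reported here.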

Additional observations from a re-analysis of the deposited data

Results flagged for a closer look

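The difference between the labels was itself different between m-ICc12 cells and organoids in 21 genes (edgeR's quasi-likelihood test of the interaction, adjusted p under 0.05), 4 larger and 17 smaller or more negative in m-ICc12 cells. Without library 1 labelled TNF-treated 13 genes passed, 12 of them among the 21. The 5 with the smallest p were Itga2 at 2.37 (edgeR adjusted p = 0.00936 without that library), Cyba at -2.09 (0.000667), Socs2 at 1.39 (0.0106), C3 at -4.91 (0.0087) and Pdlim1 at -3.91 (0.000667, with a difference of -2.89). Lars2 and Smim24, also among the 21, had adjusted p of 0.0549 and 0.0542 without it.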

How the results depend on the processing

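None of the 13 genes past the adjusted test changed sign under any alternative. Differences from organoids that did not pass had either sign for Tnfaip3, Icam1, Tapbp (-0.26 to 0.11) and Birc3 (-0.58 to 0.16), and the median of all genes lay between -0.01 and 0.09. Ccl2, Nfkbia and Itga2 passed in 13 of 13 alternatives and C3, Cxcl1 and Lcn2 in 12, losing the call (adjusted p = 0.365, 0.696 and 0.855) in the fit of all 27 libraries. Tnfaip3 and Nfkbie passed in 10, Relb and Nfkb2 in 9, Csf1 and Hist1h1d in 8, and Lars2 in 8 of 11. Without culture 3, Relb, Nfkb2, Csf1 and Hist1h1d lost the call (adjusted p = 0.0827, 0.0827, 0.205 and 0.205), and without culture 1 Lars2 did (0.0634). The count of 13 became 46 with DESeq2, 30 with all genes that had a count, 35 in the fit of all 27 libraries (7 shared with the 13) and 7 without libraries 1 and 3 labelled TNF-treated, an alternative chosen after seeing the data. Leaving out a culture, or library 1 labelled TNF-treated, gave 14 to 93 genes, the 93 without culture 2 (32 higher and 61 lower), and 383 to 1001 at the study's thresholds, the 1001 also without culture 2. The 445 became 685 in the fit of all 27 libraries. The 21 genes of the organoid comparison became 70 with DESeq2, 7 with organoids of specific pathogen-free mice alone and 36 without libraries 1 and 3 labelled TNF-treated. They were 13 without library 1 of that label and 11 to 40 without a culture, fewest without culture 2 and most without culture 3. The numbers of the m-ICc12 cultures did not pair the libraries: deviations from the label means correlated at 0.01, -0.01 and 0.09 within cultures 1, 2 and 3, and of the numbers only 3 matched itself best. With the culture as a block 6 genes passed (6 also with Lars2 left out) and 400 passed the study's thresholds. In the comparison with organoids, whose numbers paired, 103 genes passed with the block, and among the named genes it changed no call but those of Lars2 and Ccne1. Low totals limit single genes under a few CPM in library 1 labelled TNF-treated.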
